A study of Mus musculus with 12 samples.

Results

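Presented here are 9 matrix genes of the brain across 4 groups of mouse samples, namely the tenascins Tnc and Tnr, the lecticans Ncan, Bcan, Vcan and Acan, the chondroitin sulfate proteoglycans Cspg5 and Ptprz1, and the link protein gene Hapln1. They were taken by name, all 9 of them found, from a deposited expression table of 55862 genes. The study asked how astrocytes change when they are moved from a flat culture into spheres, and measured RNA in 12 samples, 3 in each group, from mice that the labels give as C57BL/6 and the study's methods as C57BL/6J for both NPC groups. ASTs were primary cortical astrocytes of newborn pups, grown as a monolayer with serum and taken at day 0 as the negative control. A-iSCs were the same kind of cells after 5 days of sphere culture on an agarose surface. The positive controls were suspensions made by dissociating brain tissue, from the adult subependymal zone for P56-NPCs and from the newborn hippocampus for P0-NPCs. No group carried a transgene or a deletion that the labels name. Both NPC groups were unsorted suspensions, and the labels do not say whether replicates came from separate cultures or animals, so p-values measure only the spread between these samples.

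The matrix of the brain holds little fibrous collagen and is built on hyaluronan, a long sugar chain. Lecticans bind hyaluronan at one end, with link proteins locking the contact, and bind tenascins at the other, and they carry chondroitin sulfate chains that give the matrix its charge. Tenascin-C is a matrix protein of developing tissue and of injury and is found in the niche of adult neural stem cells, whereas tenascin-R is made mostly by cells of the oligodendrocyte lineage and is part of the mature matrix around neurons. In the developing brain neurocan and the large forms of versican are prominent, and brevican and tenascin-R come to dominate the adult matrix. Ptprz1 encodes a receptor phosphatase of glia, whose secreted form is known as phosphacan and binds tenascins, and Cspg5 encodes neuroglycan C, a membrane proteoglycan of the nervous system.

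Levels are in FPKM, the number of sequenced fragments scaled by gene length in kilobases and by a library size, so genes can be compared with each other. Comparisons across samples rest on the library size behind the deposited values, which was 0.744 to 1.218 times the fragments. All positions are on the mouse build GRCm38. Tnc (ENSMUSG00000028364) lies on chr4:63959785-64047015 on the minus strand, Tnr (ENSMUSG00000015829) on chr1:159523769-159931729 on the plus strand, Ncan (ENSMUSG00000002341) on chr8:70093085-70120873 on the minus strand and Bcan (ENSMUSG00000004892) on chr3:87987531-88000230 on the minus strand. Hapln1 (ENSMUSG00000021613, chr13:89539796-89611652, plus strand) and Vcan (ENSMUSG00000021614, chr13:89655312-89742509, minus strand) are neighbours on chromosome 13. Acan (ENSMUSG00000030607) lies on chr7:79053483-79115099, Cspg5 (ENSMUSG00000032482) on chr9:110243783-110262576 and Ptprz1 (ENSMUSG00000068748) on chr6:22875502-23052916, all on the plus strand. A value covers all exons of a gene, so the splice forms of Vcan, with 8 protein-coding transcripts in GENCODE M21, and the membrane and secreted forms of Ptprz1, with 3, could not be separated. Exons of Tnc overlapped those of 8030451A03Rik on the opposite strand over 176 bases, which was 2.265% of its exonic length, and exons of Tnr overlapped the antisense gene Gm38039 over 443 bases, or 3.443%. Because the sources used here do not state that counting used strand, reads in those stretches cannot be assigned to one gene. The other 7 members shared no exonic base with another gene.

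The start regions of 3 members that differed in their pattern over the groups are shown, namely Tnc, which was highest in ASTs, and Bcan and Ptprz1, which were highest in P56-NPCs. Each is the 250 bases before the RefSeq start of the gene (build GRCm38.p6), read in the direction of the gene, and capitals mark matches to any of 7 short motifs.
Tnc, chr4:64047016-64047265, minus strand: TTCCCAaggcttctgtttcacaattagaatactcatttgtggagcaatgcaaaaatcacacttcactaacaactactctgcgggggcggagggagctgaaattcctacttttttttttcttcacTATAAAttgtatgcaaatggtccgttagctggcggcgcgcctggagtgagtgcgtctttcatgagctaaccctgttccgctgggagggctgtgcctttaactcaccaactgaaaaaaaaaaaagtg
Bcan, chr3:88000357-88000606, minus strand: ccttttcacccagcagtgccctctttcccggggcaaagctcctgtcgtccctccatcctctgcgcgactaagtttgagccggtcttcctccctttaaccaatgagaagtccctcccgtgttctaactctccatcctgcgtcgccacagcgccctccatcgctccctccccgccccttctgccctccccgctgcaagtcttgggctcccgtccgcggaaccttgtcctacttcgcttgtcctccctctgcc
Ptprz1, chr6:22875252-22875501, plus strand: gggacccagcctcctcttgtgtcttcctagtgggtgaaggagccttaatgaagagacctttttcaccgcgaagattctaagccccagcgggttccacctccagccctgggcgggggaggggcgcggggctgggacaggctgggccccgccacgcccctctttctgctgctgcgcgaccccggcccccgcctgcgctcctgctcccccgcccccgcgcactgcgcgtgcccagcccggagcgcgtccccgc
The motifs searched on both strands were the TATA box TATAAA, the AP-1 site TGANTCA, the TEAD core GGAATG, the RBPJ core TGGGAA, the SOX core ACAATG, the NFI half-site TTGGCA and the E-box CAGCTG. The Tnc window held a TATA box that began 126 bases before the start, and the reverse of the RBPJ core at its outer edge, 250 bases before the start. Of 32851 windows of this length in the RefSeq table, 12.37% held the TATA box and 21.59% the RBPJ core on either strand. The windows of Bcan and Ptprz1 held no match, and their GC content was 62% and 71.6%, against 44.8% for Tnc and a median of 52.4% over all windows. Among the 8 members with an entry, RBPJ core matches were also found before Tnr, Ncan and Vcan, a TATA box on the reverse strand before Ncan, an NFI half-site before Ncan, an E-box before Ncan and Acan, and a TEAD core before Acan. No entry was matched for Cspg5. The RefSeq start of Bcan lay 126 bases, that of Acan 257 bases and that of Hapln1 840 bases from the start given in the expression table. These matches describe letters and say nothing about binding.

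The libraries held 17077780 to 24452419 fragments on genes, and a floor of 3 fragments was worth between 0.103 and 0.187 FPKM on a gene of 1 kilobase. Replicate 3 of the A-iSCs stood apart, with a chi-square per degree of freedom over genes of 86.04 and 108 against the other 2, which gave 13.79 between them, and so did replicate 2 of the ASTs, with 42.35 and 44.02 against 2.515, so member results whose call or size rests on them are given with and without them. The labelled cell types were checked against summed levels of marker genes. In ASTs all 7 astrocyte markers averaged at least 1 FPKM, but they summed to only 116 to 133 FPKM, against 1146 to 2396 in A-iSCs, 2787 to 3015 in P56-NPCs and 224 to 288 in P0-NPCs. The P0-NPC sum was carried by Aldoc, Slc1a3 and Gfap, and of the 7 markers 4 were higher and 3, Aqp4, Gja1 and S100b, lower in P0-NPCs than in ASTs. Fibroblast and mural cell markers summed to 1884 to 2269 FPKM in ASTs and to at most 135 in any other sample, with Acta2 (mean 1848 FPKM) and Col1a1 (158 FPKM) making up most of the AST sum. P56-NPCs carried oligodendrocyte markers at 10825 to 12337 FPKM, against at most 75.9 elsewhere, and their neural precursor markers summed to 181 to 217 FPKM, below the 688 to 850 of the other 9 samples. In such bulk RNA, fewer cells of a type and less RNA per cell cannot be told apart.

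**Figure D1:**
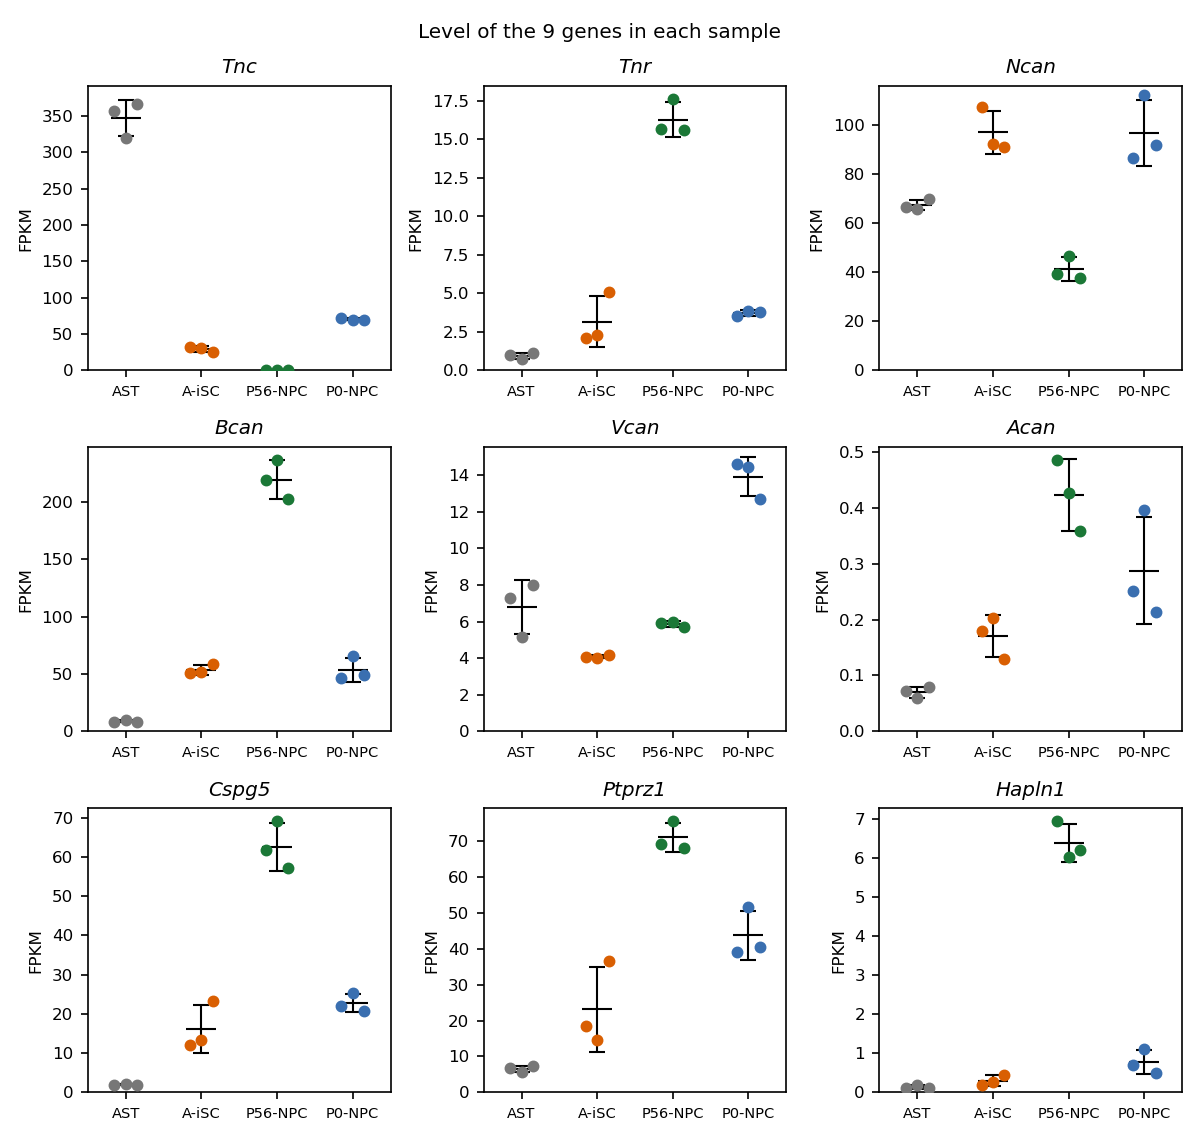
Level of each of the 9 genes in FPKM on a linear axis that starts at 0, with a separate scale per gene. Points are the 3 samples of each group, the long bar is the mean and the short bars are 1 SD. Tnc was highest in ASTs, Ncan in A-iSCs and P0-NPCs, Vcan in P0-NPCs, and the means of the other 6 genes in P56-NPCs.

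Tnc was the most abundant of the 9 genes in ASTs and had the widest range. The 3 AST samples held 356.9, 318.8 and 366.2 FPKM, which placed Tnc between ranks 89 and 154 among protein-coding genes. The A-iSC samples held 31.8, 30.9 and 24.9 FPKM, the P0-NPC samples 71.5, 69.8 and 68.8 FPKM, and the P56-NPC samples 0.259, 0.305 and 0.383 FPKM. No group overlapped another, and the order was ASTs, P0-NPCs, A-iSCs and P56-NPCs. The A-iSC mean of 29.2 ± 3.77 FPKM (SD, n = 3) was 0.084 times the AST mean of 347.3 ± 25.1, with a log2 fold change of -3.53 on the scale of FPKM + 1 (SE 0.14, limma, adjusted p = 5.19e-06). A-iSCs nevertheless held 92.5 times the mean level of P56-NPCs (log2 fold change 4.51, adjusted p = 3.46e-07) and 0.417 times that of P0-NPCs (-1.24, adjusted p = 7.78e-05). P56-NPCs had 35 to 49 fragments on Tnc, above the 3 fragments taken as the floor. Of 7 fibroblast and mural markers, all 5 that were tested were lower in A-iSCs against ASTs, while P56-NPCs against P0-NPCs had 6 lower and 1 not called. P56-NPCs over ASTs had 1 higher and 5 lower of 6 tested, and A-iSCs over P0-NPCs 1 higher and 6 lower of 7. The counts were divided in P0-NPCs over ASTs, with 4 higher, 2 lower and 1 not called, and in A-iSCs over P56-NPCs, with 2 higher and 3 lower of 5 tested. The part of these cells in the Tnc levels was not tested.

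Tnr, the other tenascin among the members, followed a different order. It was lowest in ASTs, at 0.969, 0.732 and 1.11 FPKM, and highest in P56-NPCs, at 15.7, 17.6 and 15.6 FPKM. P0-NPCs held 3.54, 3.88 and 3.77 FPKM, and A-iSCs 2.12, 2.29 and 5.09 FPKM. The highest A-iSC sample was replicate 3, which exceeded all P0-NPC samples while the other 2 lay below them. Tnr rose in A-iSCs over ASTs by a log2 fold change of 1.04 (95% interval 0.44 to 1.64, adjusted p = 0.0116), and by 0.73 without A-iSC replicate 3 (adjusted p = 0.00237). Between A-iSCs and P0-NPCs it did not pass the test, with a difference of -0.25 (95% interval -0.82 to 0.32, adjusted p = 0.392), but without replicate 3 it was lower in A-iSCs by -0.56 (adjusted p = 0.000933). Tnc made up 99.7% ± 0.0371 of the summed FPKM of Tnc and Tnr in ASTs, 89.9% ± 6.02 in A-iSCs, 94.9% ± 0.300 in P0-NPCs and 1.91% ± 0.425 in P56-NPCs (SD, n = 3 each). Among the A-iSC samples the share was 93.7%, 93.1% and 83.0%. Without replicate 3 the difference of A-iSCs from P0-NPCs was -1.53 percentage points instead of -5.00, and from ASTs -6.32 points instead of -9.79. P56-NPCs were the group in which Tnr exceeded Tnc. The tenascin genes Tnxb, at 1.71 FPKM in P0-NPCs and at most 0.295 in the other group means, and Tnn, at most 0.488, were not in this sum.

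Among the lecticans, Ncan had the flattest profile, its highest group mean being 2.35 times its lowest. Its levels in FPKM were 66.7, 65.9 and 70.0 in ASTs, 107.4, 92.5 and 91.3 in A-iSCs, 86.7, 112.3 and 92.1 in P0-NPCs, and 39.5, 46.8 and 37.7 in P56-NPCs. A-iSCs and P0-NPCs overlapped and shared the highest level, ASTs came next and P56-NPCs were lowest. The A-iSC mean was 1.44 times that of ASTs (log2 fold change 0.51, 95% interval 0.23 to 0.80, adjusted p = 0.0101). This call was lost without AST replicate 1, with an adjusted p of 0.051 at a difference of 0.51. The difference of A-iSCs over P56-NPCs, the highest and the lowest group, was 1.22 on the log2 scale (adjusted p = 0.000149).

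Bcan, the lectican of the adult brain, rose more steeply. In ASTs it held 8.50, 9.91 and 8.36 FPKM and in A-iSCs 50.6, 51.7 and 58.4 FPKM. P0-NPCs held 46.5, 65.7 and 49.2 FPKM and P56-NPCs held 218.7, 236.2 and 202.8 FPKM. The A-iSC samples lay within the range of the P0-NPC samples, above every AST sample and below every P56-NPC sample. Bcan in A-iSCs was 6.00 times the AST mean (log2 fold change 2.46, 95% interval 2.18 to 2.74, adjusted p = 7.99e-06) and 0.244 times the P56-NPC mean (-2.01, adjusted p = 7.85e-06). In P56-NPCs Bcan was 24.6 times as high as in ASTs (4.47, adjusted p = 4.24e-08) and reached rank 152 among protein-coding genes. The 6 oligodendrocyte precursor markers summed to 106 to 128 FPKM in ASTs, 147 to 172 in A-iSCs, 54.3 to 86.6 in P0-NPCs and 551 to 555 in P56-NPCs, sums in which Olig1 was the largest term (mean 84.5 FPKM in ASTs and 45.0 in P0-NPCs). The single markers were divided, with 4 higher, 1 lower and 1 not called in A-iSCs over ASTs, where Sox10 went from 0.279 to 11.2 FPKM and Pdgfra from 0.373 to 5.50 FPKM, and 2 higher (Pdgfra and Sox10) and 3 lower of 5 tested in P0-NPCs over ASTs. All 6 of these markers and all 7 astrocyte markers were higher in P56-NPCs than in ASTs and in P0-NPCs, and their part in the Bcan level was not tested.

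For Ncan and Bcan the difference between A-iSCs and P0-NPCs was close to 0 on the log2 scale, at 0.0059 for Ncan and 0.0072 for Bcan. The 95% intervals were -0.33 to 0.34 for Ncan (adjusted p = 0.974) and -0.35 to 0.37 for Bcan (adjusted p = 0.971). The intervals thus leave room for differences of up to 0.37 in size. The sign of both small differences changed with library-size scaling and with upper-quartile scaling, and gives no direction.

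Vcan, the versican gene, was below both Ncan and Bcan in each of the 12 samples. ASTs held 7.27, 5.15 and 7.99 FPKM, A-iSCs 4.08, 4.01 and 4.16 FPKM, P56-NPCs 5.93, 5.98 and 5.69 FPKM, and P0-NPCs 14.6, 14.4 and 12.7 FPKM. The P0-NPC samples were the highest and the A-iSC samples the lowest, while the P56-NPC samples fell inside the AST range. Vcan fell in A-iSCs against ASTs by a log2 fold change of -0.60 (95% interval -0.96 to -0.24, adjusted p = 0.0138). That call did not hold with library-size scaling (-0.42, adjusted p = 0.0665), without AST replicate 1 (-0.55, adjusted p = 0.0564) or without AST replicate 3 (-0.49, adjusted p = 0.0561), and it held at -0.76 without AST replicate 2, the lowest AST sample. Against P0-NPCs Vcan was 0.293 times as high in A-iSCs (log2 fold change -1.55, adjusted p = 9.14e-06). Between P56-NPCs and ASTs Vcan was not called (-0.17, 95% interval -0.50 to 0.17, adjusted p = 0.305), but P56-NPCs were lower without AST replicate 2 (-0.33, adjusted p = 0.00317) and with library-size scaling (-0.45, adjusted p = 0.025). Neuron markers summed to 761 to 937 FPKM in P0-NPCs against at most 238 elsewhere, a sum carried by Tubb3 (mean 634 FPKM) and Stmn2 (109 FPKM). Of the 6 neuron markers, all were higher in P0-NPCs than in ASTs and in A-iSCs, but in P56-NPCs over P0-NPCs 2 were higher, 3 lower and 1 not called. All 5 endothelial markers were higher in P0-NPCs than in each other group, with sums of 73.9 to 77.5 FPKM against at most 5.73. The part of either in the Vcan level was not tested.

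Acan, which encodes the aggrecan core protein of cartilage and of perineuronal nets, stayed under the mean of 1 FPKM that a gene needed for testing. ASTs had 9 to 11 fragments on it, A-iSCs 26 to 36, P0-NPCs 43 to 86 and P56-NPCs 44 to 63. In FPKM these were 0.0719, 0.0594 and 0.0793 in ASTs, 0.179, 0.203 and 0.130 in A-iSCs, 0.252, 0.395 and 0.214 in P0-NPCs, and 0.486, 0.425 and 0.358 in P56-NPCs. AST samples lay below all others, and P0-NPCs and P56-NPCs overlapped. With no filter on low values the log2 difference of A-iSCs over ASTs was 0.13 (adjusted p = 0.0372), a scale on which a gene this low moves little. The 4 markers of parvalbumin interneurons, cells that carry perineuronal nets, summed to 0.934 to 1.196 FPKM in ASTs, 28.5 to 33.9 in A-iSCs, 15.3 to 17.7 in P0-NPCs and 38.9 to 56.4 in P56-NPCs. The A-iSC sum was nearly all Pvalb, at a mean of 26.5 FPKM against 0.0226 in P0-NPCs, while Gad1 (1.71 against 5.06 FPKM), Gad2 (0.849 against 5.69 FPKM) and Kcnc1 (1.31 against 5.54 FPKM) were lower in A-iSCs than in P0-NPCs. The part of these cells in the Acan level was not tested.

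The make-up of the lectican RNA was read as the share of each gene in the summed FPKM of all 4 lecticans. That sum was 83.3 ± 2.76 FPKM in ASTs, 154.9 ± 6.96 in A-iSCs, 165 ± 24.3 in P0-NPCs and 267 ± 21.6 in P56-NPCs (SD, n = 3 each). Ncan took 81.0% ± 0.270 of it in ASTs, 62.6% ± 3.45 in A-iSCs, 58.8% ± 0.801 in P0-NPCs and 15.5% ± 0.648 in P56-NPCs. Bcan took 10.7% ± 1.33, 34.6% ± 3.36, 32.5% ± 1.44 and 82.2% ± 0.529 in the same order. Neurocan RNA was thus the main lectican RNA in 3 groups and brevican RNA in P56-NPCs. The Vcan share was 8.14% ± 1.56 in ASTs and 8.53% ± 1.23 in P0-NPCs, against 2.64% ± 0.107 in A-iSCs and 2.21% ± 0.125 in P56-NPCs, and the mean Acan share was at most 0.171%. Exact two-sided permutation tests of 3 samples against 3 cannot give a p under 0.1, and 25 of 30 share differences, those of Tnc in the sum with Tnr included, reached it with no overlap (adjusted p = 0.12). The Ncan and Bcan shares of A-iSCs and P0-NPCs overlapped, with differences of 3.78 percentage points (exact permutation p = 0.2) and 2.18 points (exact permutation p = 0.4). With samples left out in turn they ran from 1.99 to 5.43 points for Ncan and from 0.544 to 3.90 points for Bcan, whose difference was 0.544 without A-iSC replicate 3.

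**Figure D2:**
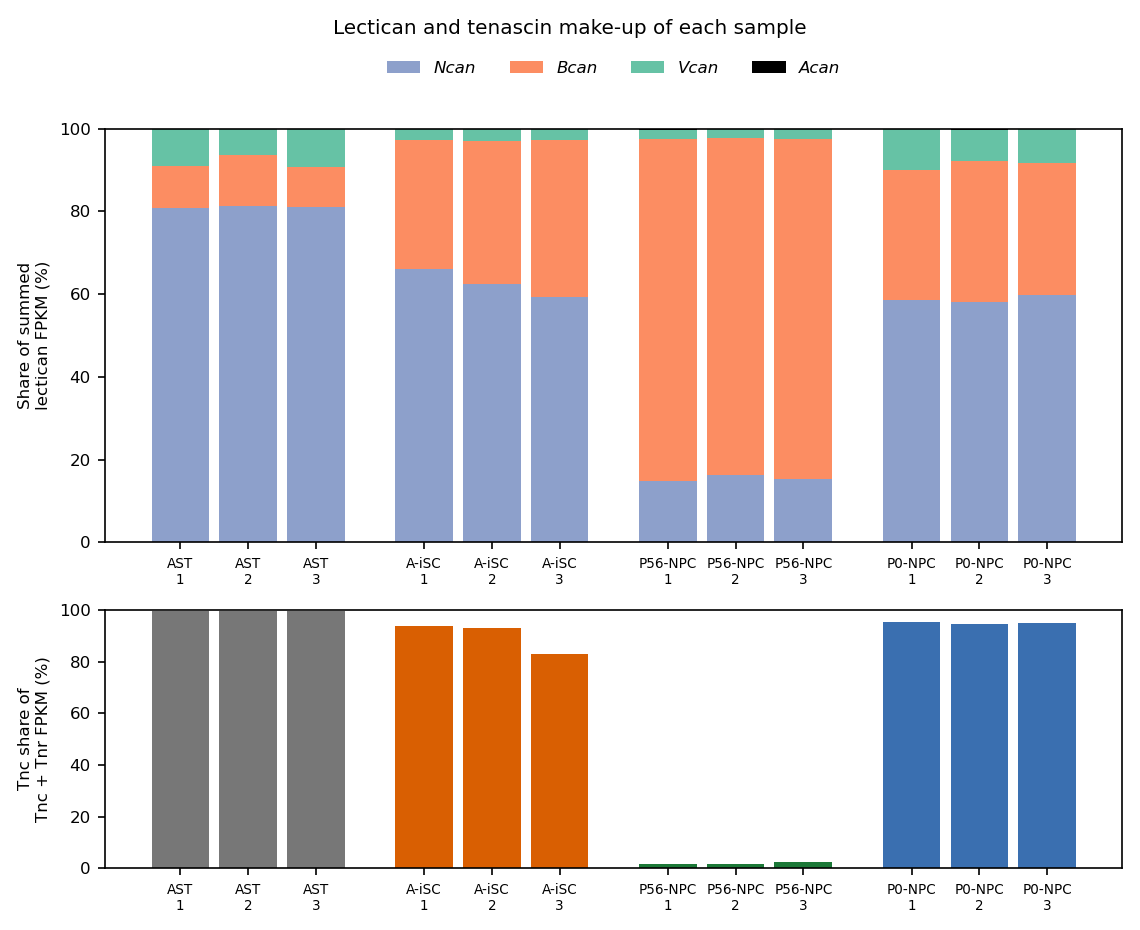
Upper panel, share of each lectican gene in the summed lectican FPKM of each of the 12 samples, in percent and stacked to 100. Lower panel, share of Tnc in the sum of Tnc and Tnr in percent. Bcan takes 81.6% to 82.7% in the P56-NPC samples and at most 37.9% in any other sample, and Tnc takes at most 2.40% of the sum with Tnr in P56-NPCs and at least 83.0% elsewhere, while Acan is too low to be seen.

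Cspg5 and Ptprz1, the membrane proteoglycans, both rose from ASTs to A-iSCs and were highest in P56-NPCs. Cspg5 was at 1.97, 2.12 and 1.96 FPKM in the AST samples, 12.02, 13.4 and 23.3 FPKM in A-iSCs, 22.1, 25.3 and 20.8 FPKM in P0-NPCs, and 61.7, 69.1 and 57.1 FPKM in P56-NPCs. In A-iSCs its mean was 8.05 times that of ASTs (log2 fold change 2.46, 95% interval 1.92 to 2.99, adjusted p = 0.000113), the largest ratio over ASTs among the 7 members tested there. On the log2 scale Bcan was also at 2.46, and without A-iSC replicate 3 Bcan was at 2.40 and Cspg5 at 2.18 (adjusted p = 2.08e-05). Against P0-NPCs Cspg5 missed the threshold (-0.51, 95% interval -1.05 to 0.02, adjusted p = 0.0832), and it was lower in A-iSCs without replicate 3 (-0.79, adjusted p = 0.000347) and with all 4 groups in the model (adjusted p = 0.029).

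Ptprz1 was at 6.86, 5.66 and 7.33 FPKM in the AST samples, 18.4, 14.5 and 36.7 FPKM in A-iSCs, 39.2, 51.5 and 40.4 FPKM in P0-NPCs, and 69.3, 75.6 and 68.1 FPKM in P56-NPCs. All 4 groups were separate, in the order P56-NPCs, P0-NPCs, A-iSCs and ASTs. The A-iSC mean was 3.51 times that of ASTs (log2 fold change 1.57, 95% interval 0.84 to 2.29, adjusted p = 0.00422), and the difference was 1.195 without replicate 3 (adjusted p = 0.000708). A-iSCs were below P0-NPCs (-0.98, 95% interval -1.70 to -0.27, adjusted p = 0.0233). The latter call was lost with no filter on low values at the same difference of -0.98 (adjusted p = 0.0619) and on leaving out replicate 1 or 2 of the A-iSCs or replicate 2 or 3 of the P0-NPCs, with differences from -1.03 to -0.71 and adjusted p between 0.055 and 0.0877, and was stronger without A-iSC replicate 3 (-1.35, adjusted p = 0.000122). P56-NPCs exceeded P0-NPCs by 0.70 (adjusted p = 0.000613), a call lost with library-size scaling (0.075, adjusted p = 0.524).

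Hapln1, which encodes the link protein that fixes lecticans to hyaluronan, had a mean of at least 1 FPKM in P56-NPCs alone among these groups. There it reached 6.93, 6.02 and 6.19 FPKM. P0-NPCs held 0.689, 1.11 and 0.504 FPKM, A-iSCs 0.193, 0.264 and 0.455 FPKM, and ASTs 0.101, 0.201 and 0.1004 FPKM, from 10 to 24 fragments in ASTs. A-iSCs and ASTs overlapped, and all P0-NPC samples were above both. P56-NPCs exceeded P0-NPCs by a log2 fold change of 2.08 (95% interval 1.77 to 2.38, adjusted p = 3.92e-06). Between A-iSCs and ASTs Hapln1 was not tested because neither mean reached 1 FPKM, and with no filter the difference was 0.20 (adjusted p = 0.145). Tnr, Bcan, Acan, Cspg5, Ptprz1 and Hapln1 all had their highest mean in P56-NPCs, the group with the highest sums of astrocyte, oligodendrocyte precursor and oligodendrocyte markers. Ependymal markers were also highest there, at 267 to 368 FPKM against at most 117 elsewhere, as was the share of fragments on mitochondrial genes, at 16.5% to 17.6% against 2.94% to 7.03%. In A-iSCs over P56-NPCs the 7 astrocyte markers were split, with 1 higher, 5 lower and 1 not called. Mean Gfap was 970 FPKM in A-iSCs and 211 FPKM in P56-NPCs, and mean Aqp4 was 92.4 and 61.8 FPKM. The part of these cells and of the mitochondrial share in those 6 levels was not tested.

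Replicate 3 of the A-iSCs held the highest A-iSC level of 6 members and the lowest of Ncan, Tnc and Acan. Its level over the mean of the other 2 samples was 2.30 for Tnr, 2.23 for Ptprz1, 1.99 for Hapln1 and 1.83 for Cspg5. For Bcan the ratio was 1.14, for Vcan 1.03, for Ncan 0.914, for Tnc 0.793 and for Acan 0.680. The 7 astrocyte markers had ratios of 1.08 (S100b) and 1.302 (Aldoc) to 2.45 (Slc1a3), 5 of them at least 1.92. The 6 oligodendrocyte precursor markers ran from 0.715 (Sox10) to 1.53 (Pdgfra), with Gpr17 at 1.52, and the 6 oligodendrocyte markers from 0.337 (Mog) to 1.40 (Cnp). The 7 fibroblast and mural markers ran from 0.512 (Acta2) to 1.11 (Lum), and their sum, like Tnc, was lowest in this sample, at 32.8 FPKM against 66.4 and 49.9. The share of fragments on mitochondrial genes was 3.05% in this sample, against 7.03% and 5.49% in A-iSC replicates 1 and 2. The part of these cells and of that share in the member levels of this sample was not tested.

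In the tests, 7 of the 9 members had the level needed for the test between A-iSCs and ASTs, and all 7 passed, with limma and a Benjamini-Hochberg adjusted p under 0.05. Tnr, Ncan, Bcan, Cspg5 and Ptprz1 were higher in A-iSCs, and Tnc and Vcan lower. Over all 14087 genes tested there, 54.8% were called, 25.2% as higher and 29.6% as lower. Groups did not overlap for any of the 7 tested members, against 62.7% of all tested genes without overlap. In the same comparison 6 of 7 astrocyte markers were higher and 1 was not called, and microglia markers were at 1084 to 1495 FPKM in A-iSCs and 96.5 to 127 in ASTs, and the part of either in the member calls was not tested. The comparisons of P56-NPCs and P0-NPCs with ASTs used the same AST samples, and the 3 comparisons with A-iSCs the same A-iSC samples, so values are given side by side only. P56-NPCs were higher for 5 of 8 tested members and lower for Tnc (-8.05) and Ncan (-0.70), with 78.9% of all tested genes called, 39.1% higher and 39.8% lower, and 7 of the 8 tested members did not overlap, against 81.9% of all tested genes. P0-NPCs were higher for 6 of 7 and lower for Tnc (-2.29), with 79% of all tested genes called, 38.1% higher and 40.9% lower, and none of the 7 tested members overlapped, against 81.4% of all tested genes without overlap. Side by side on the log2 scale over ASTs, Cspg5 differed by 2.46 in A-iSCs, 4.39 in P56-NPCs and 2.97 in P0-NPCs, and Ptprz1 by 1.57, 3.25 and 2.55. Tnr had an AST mean of 0.938 FPKM, so it was tested against ASTs only through the other group. Hapln1 was tested only through P56-NPCs, and Tnc (0.316 FPKM in P56-NPCs) was tested against P56-NPCs only through the other group. Such members pass the filter through the group where they are high, so their calls are no separate support.

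Between A-iSCs and P56-NPCs all 8 tested members were called, Hapln1 having been tested through the P56-NPC mean alone and Tnc through the A-iSC mean alone. Tnc and Ncan were higher in A-iSCs, and the other 6 lower, among them Hapln1 (-2.50, adjusted p = 3.34e-06), Tnr (-2.12, adjusted p = 0.00031), Cspg5 (-1.93, adjusted p = 0.000348), Ptprz1 (-1.68, adjusted p = 0.00255) and Vcan (-0.43, adjusted p = 0.00326). Of all genes tested there, 61% were called, 30.1% higher and 30.9% lower. The groups were apart for each of these 8 members, against 68.5% of all tested genes without overlap. Without A-iSC replicate 3 all 8 were also called, with Tnr at -2.43, Cspg5 at -2.21 and Ptprz1 at -2.05. The Vcan call was lost with library-size scaling, where the difference was 0.029 (adjusted p = 0.763).

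A-iSCs and P0-NPCs differed in the fewest members. Tnc, Vcan and Ptprz1 were lower in A-iSCs, 4 tested members were not called, and 3 of the 7 tested did not overlap. Over all genes tested there, 65.1% were called, 31.5% as higher and 33.6% as lower, and 70.7% did not overlap. All 6 microglia markers were higher in A-iSCs, with sums of 1084 to 1495 FPKM against 63.6 to 73.5 in P0-NPCs. Of 7 astrocyte markers 5 were higher and 2 not called, and all 6 neuron and all 5 endothelial markers were lower. The part of these cells in the member calls was not tested. Without A-iSC replicate 3, 5 members were called, the additional ones being Tnr and Cspg5, and 11506 genes or 75.3% of all tested were called, against 9876 with it. P56-NPCs and P0-NPCs differed in all 8 tested members, with 5 higher in P56-NPCs and Tnc (-5.76), Ncan (-1.21) and Vcan (-1.12) lower, where 78.8% of all tested genes were called, 39.7% higher and 39% lower. None of the 8 tested members overlapped there, against 81.2% of all tested genes without overlap. Hapln1 was tested there through the P56-NPC mean alone and Tnc through the P0-NPC mean alone.

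**Figure D3:**
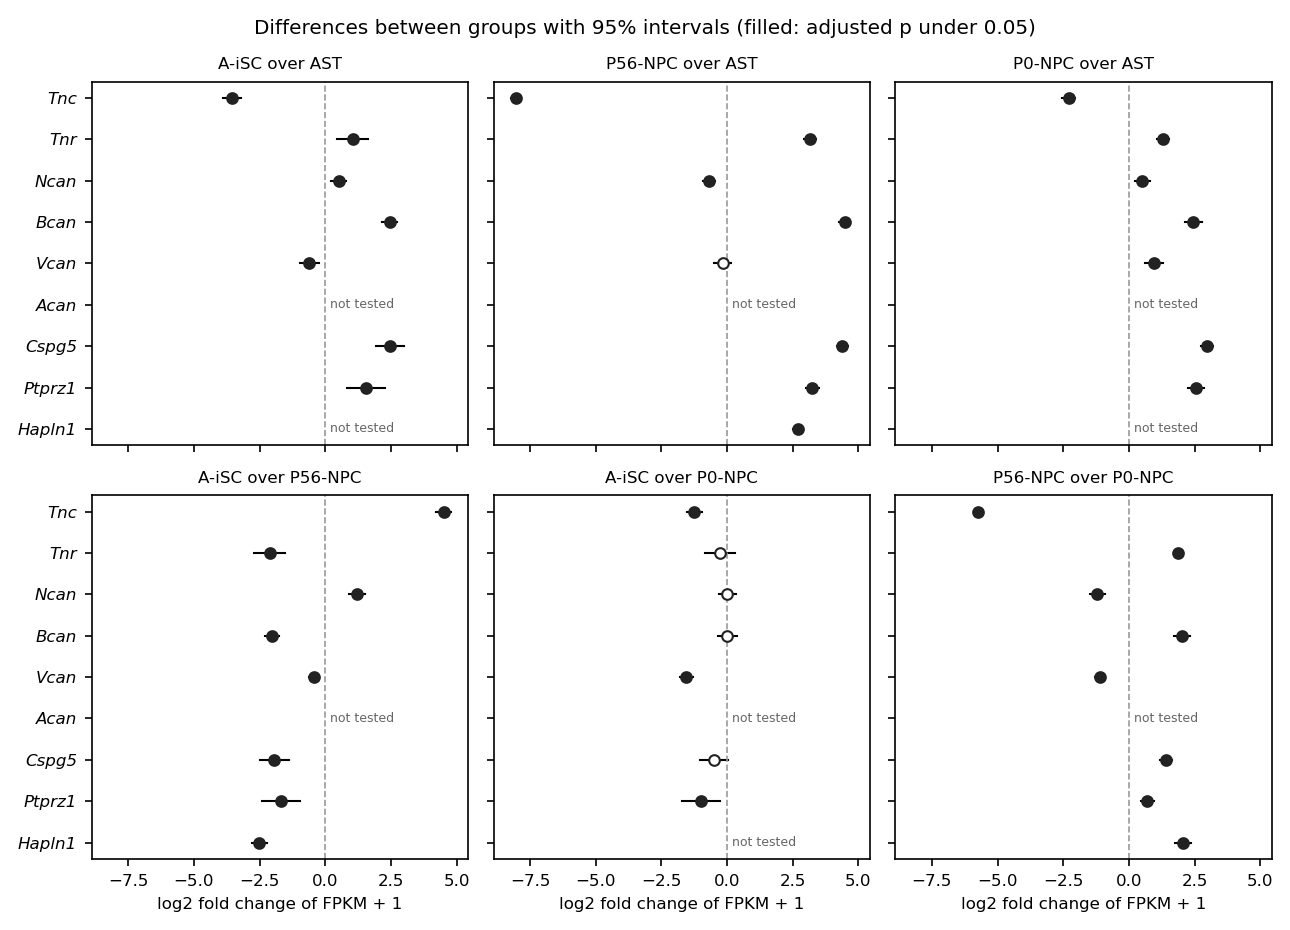
Log2 fold change of FPKM + 1 for each member in the 6 comparisons, with 95% intervals from limma as horizontal lines. Filled points have an adjusted p under 0.05, open points do not, and members under the mean of 1 FPKM are marked as not tested. The open points are Vcan in P56-NPCs over ASTs and Tnr, Ncan, Bcan and Cspg5 in A-iSCs over P0-NPCs.

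Summed over all 9 members, ASTs held 440 FPKM, P56-NPCs 423, P0-NPCs 306 and A-iSCs 227, as group means. The make-up behind these sums differed, because Tnc accounted for 78.8% ± 0.730 of the sum in ASTs, 23.1% ± 2.50 in P0-NPCs, 13.0% ± 2.45 in A-iSCs and 0.0752% ± 0.0192 in P56-NPCs (SD, n = 3 each). The likeness of any pair of members over the 12 samples was measured as the root mean square difference of their log2 (FPKM + 1) values, each centred on its own mean. The closest pair was Bcan and Cspg5 at 0.292, followed by Tnr and Hapln1 at 0.382, Cspg5 and Ptprz1 at 0.466, and Tnr and Ptprz1 at 0.511. Tnc was farthest from the rest, at 2.64 from Ncan and 4.48 from Bcan. The nearest protein-coding genes outside the 9 were Ppic (1.01), Fn1 (1.15) and Col1a1 (1.21) for Tnc, Sox7, Dtx4 and Fam20c (0.135 to 0.167) for Ncan, Btbd17, Kcnip3 and Tril (0.240 to 0.253) for Bcan, and Pdgfra, Psd2 and Kbtbd11 (0.208 to 0.239) for Cspg5. For Tnr they were Efcab2, Bbox1 and Dgkb (0.139 to 0.202), for Vcan Fhod3, Slf1 and Map3k9 (0.112 to 0.126), for Ptprz1 Fam216b, Entpd2 and Mgat3 (0.251 to 0.257), for Hapln1 Gm28729, Musk and Cpne6 (0.108 to 0.134), and for Acan Ric8b, Dedd and Vps8 (0.0831 to 0.0890). Distances of genes with low levels are small because their log2 (FPKM + 1) values hardly move. All these distances rest on the same 12 libraries.

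The genes that build, modify, cut and bind this matrix were taken from lists, and their counts between A-iSCs and ASTs stand beside the 54.8% of all tested genes that were called there, 25.2% higher and 29.6% lower. The fibroblast and mural markers fell in this comparison too, all 5 tested being lower with a median log2 fold change of -2.98, and the part of these cells in the falls of partner genes was not tested. Of 12 genes of hyaluronan synthesis, breakdown and binding, 8 were tested and 7 were lower, with a median log2 fold change of -0.87 against -0.06 over all tested genes. The largest falls were in Cemip, a hyaluronan-degrading protein, from 25.8 ± 9.84 to 2.41 ± 0.354 FPKM (-2.90, adjusted p = 0.00015), in Hmmr, a hyaluronan-binding protein of the mitotic spindle (-2.55, adjusted p = 1.88e-05), and in Cd44, the main hyaluronan receptor, from 104.5 ± 2.73 to 31.3 ± 3.14 FPKM (-1.71, adjusted p = 3.23e-05). Cd44 was at 0.534 ± 0.126 FPKM in P56-NPCs and 1.07 ± 0.209 FPKM in P0-NPCs, so that A-iSCs were above both (4.39, adjusted p = 3.32e-07, and 3.96, adjusted p = 4.94e-07). Among the other tenascins and link proteins, only Hapln4, the link protein of brain that pairs with brevican, was tested, and it fell from 3.43 ± 0.376 to 1.31 ± 0.352 FPKM (-0.95, adjusted p = 0.00128). Hapln2, a link protein of myelinated axons, was chosen for mention after its values were seen, with 79.7 ± 10.6 FPKM in P56-NPCs and at most 4, 2 and 15 fragments in A-iSCs, ASTs and P0-NPCs.

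Enzymes of the chondroitin sulfate chain were called in both directions. Of 11 genes of chain synthesis, 10 were tested, 5 were lower, 1 higher and 4 not called, with a median of -0.55. Chsy1, which polymerises the chain, fell from 32.9 ± 2.35 to 10.2 ± 2.47 FPKM (-1.63, adjusted p = 0.000239), and its partner Chpf (-0.70, adjusted p = 0.00722) and B3galt6, of the linker to the core protein (-0.84, adjusted p = 0.000595), fell less. Of 10 genes of sulfation and epimerisation, 9 were tested, 5 were lower, 1 higher and 3 not called, with a median of -0.55. Chst7, a 6-O-sulfotransferase, fell from 13.5 ± 0.504 to 1.996 ± 0.185 FPKM (-2.27, adjusted p = 6.55e-06), Chst14, a dermatan 4-O-sulfotransferase, by -1.18 (adjusted p = 8.72e-05) and the epimerase gene Dse by -0.64 (adjusted p = 0.00451).

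Of 7 genes of the ADAMTS proteases that cut lecticans, 5 were tested, 4 were lower in A-iSCs and 1 was not called, with a median of -0.86. Adamts1 fell from 53.0 ± 10.03 to 11.4 ± 0.433 FPKM (-2.11, adjusted p = 4.21e-05) and Adamts5 from 3.71 ± 0.219 to 0.856 ± 0.179 FPKM (-1.35, adjusted p = 8.51e-05). Adamts4 fell as well (-0.86, adjusted p = 0.0349), although its samples overlapped between the groups. In P56-NPCs, where Bcan was highest, Adamts4 stood at 38.9 ± 2.55 FPKM against 2.97 ± 1.10 in ASTs (3.37, adjusted p = 5.15e-06), while Adamts1 and Adamts5 were lower than in ASTs (-2.81, adjusted p = 1.72e-06, and -2.03, adjusted p = 4.38e-07). Of the 6 tested in P56-NPCs over ASTs, 2 were higher and 4 lower. Adamts20 was at 4.53 FPKM in P56-NPCs and 0.0469 FPKM in ASTs. Oligodendrocyte markers were likewise highest in P56-NPCs, and their part in the Adamts4 level was not tested.

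Receptors and ligands of the members were split. Of 22 genes, 16 were tested between A-iSCs and ASTs, 6 were higher, 6 lower and 4 not called, with a median of -0.20. Itgb1, the beta subunit of several tenascin-binding integrins, fell from 663 ± 109 to 109.5 ± 24.7 FPKM (-2.59, adjusted p = 6.24e-05). Ptn, which encodes pleiotrophin, a ligand of Ptprz1, rose from 47.2 ± 4.82 to 179 ± 79.7 FPKM (1.81, adjusted p = 0.00148). Cntn1, which encodes contactin, a neural adhesion protein bound by Ptprz1 and tenascin-R, rose from 0.427 ± 0.0573 to 3.19 ± 1.74 FPKM (1.48, adjusted p = 0.00249). Ptn in A-iSCs did not pass the test against P56-NPCs (-0.52, 95% interval -1.18 to 0.14, adjusted p = 0.146) or P0-NPCs (-0.50, 95% interval -1.15 to 0.15, adjusted p = 0.153), whereas Cntn1 was lower in A-iSCs than in both (-3.17, adjusted p = 5.01e-05, and -1.12, adjusted p = 0.00628). Both genes were highest in replicate 3, the A-iSC samples holding 142.1, 123.7 and 269.99 FPKM of Ptn and 2.28, 2.08 and 5.20 FPKM of Cntn1. Without that sample, a fit added after the data were seen, the rise over ASTs was 1.47 for Ptn (adjusted p = 0.000202) and 1.16 for Cntn1 (adjusted p = 0.000177). Ptn was then lower in A-iSCs than in P56-NPCs (-0.86, adjusted p = 0.000197) and in P0-NPCs (-0.84, adjusted p = 0.000612), and no other partner gene named here lost its call against ASTs.

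**Figure D4:**
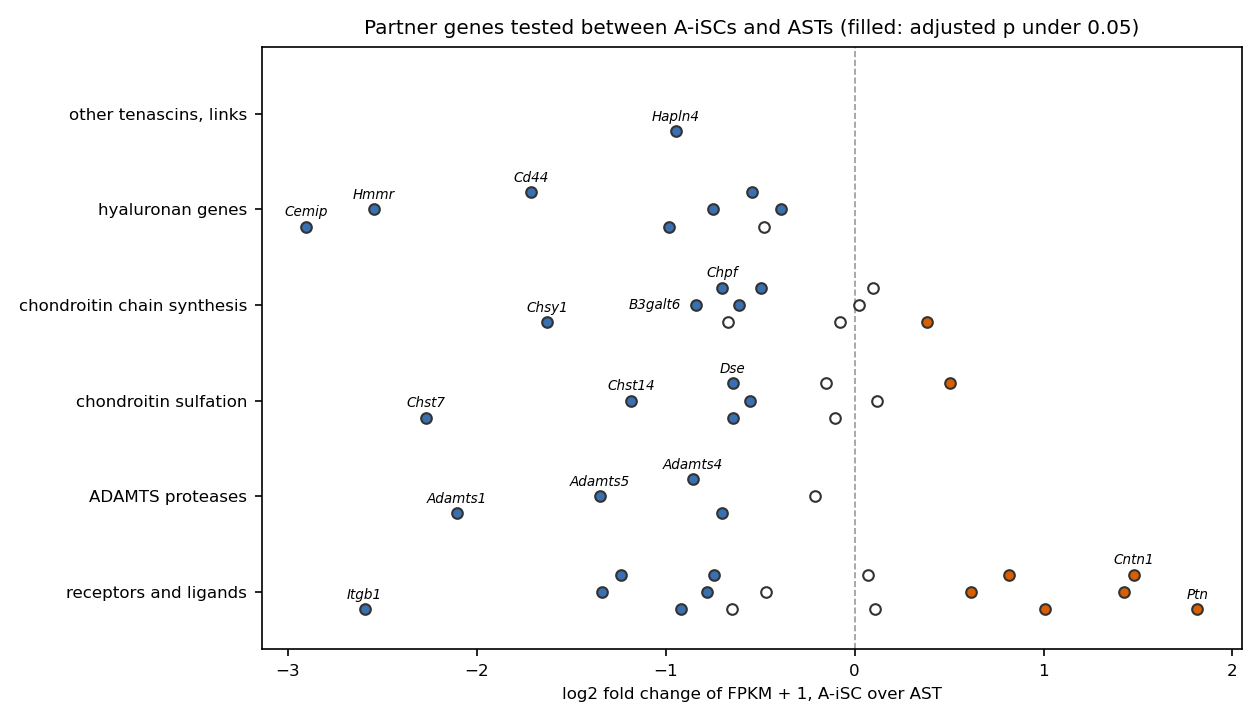
Log2 fold change of FPKM + 1 in A-iSCs over ASTs for the partner genes that were tested, grouped by list, with each point a gene. Filled points have an adjusted p under 0.05, orange higher and blue lower in A-iSCs, and open points do not. Named points are the at most 3 called genes per list with the largest absolute change, from -2.90 for Cemip to 1.81 for Ptn, and vertical offsets within a list only separate the points.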

How the data were processed

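RNA of 12 mouse samples was sequenced by the authors from NEBNext Ultra libraries as paired-end Illumina HiSeq reads. The authors deposited 1 table of FPKM values, whose unit was inferred from the values. Each value above 0 times its gene length lay within 0.02 steps of a whole multiple of 1 step per sample, which gave the fragments back. The library size behind the deposited FPKM was 0.744 to 1.218 times the fragments, so a scaling between samples was already included. The submitters' processing notes name Bowtie 0.12.2 and mm8, but 54899 of 55154 shared gene identifiers had their GENCODE M21 position on GRCm38. Groups were compared 2 at a time with limma 3.58.1 in R 4.3.3 (lmFit, eBayes with a trend) on log2(FPKM + 1), a scale that understates changes of low genes, for genes with a mean of at least 1 FPKM in either group. Benjamini-Hochberg adjustment covered all genes tested, and genes were called at 0.05. The authors used DESeq2, which was not run because the table holds no counts as deposited. Shares were compared by exact two-sided permutation tests. Python 3.11.15, numpy 2.4.6, pandas 2.3.3 and scipy 1.17.1 were used. The 9 genes, the lists and the rule for named partner genes (at most 3 called per list, by absolute change of A-iSCs over ASTs) were chosen with earlier results of these data known. Floors of 3 fragments cover counting error only. Same-numbered replicates did not deviate together throughout and were not paired. For ASTs and A-iSCs their correlations were -0.3782 for replicate 1, 0.3352 for replicate 2 and 0.4266 for replicate 3. Samples of different number reached 0.5088 (AST replicate 2 with A-iSC replicate 1) and -0.5491 (AST replicate 2 with A-iSC replicate 3). The alternatives tried were library-size and upper-quartile scaling, a pseudocount of 0.1, no filter, a model over all 4 groups, a replicate block, limma-voom on the recovered fragments, shares of fragments, and leaving out each sample, for list genes A-iSC replicate 3 alone, which was added after seeing the data. Protein sequences were not used here.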

Additional observations from a re-analysis of the deposited data

How the results depend on the processing

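Of the member log2 fold changes under the alternatives, 559 kept their direction and their side of the threshold, 10 kept their direction but lost their call, 5 gained one and 11 changed sign, 1 of which, Vcan in A-iSCs over P56-NPCs, also lost its call. Of the share differences 205 kept their direction and 5 changed sign, and none of their exact tests could pass 0.05. With library-size scaling that Vcan difference, called at -0.43, moved to 0.029 (adjusted p = 0.763), and Ncan and Bcan in A-iSCs over P0-NPCs to -0.067 and -0.065, and with upper-quartile scaling the last 2 moved to -0.017 and -0.015. With samples left out in turn they ran from -0.070 to 0.11 for Ncan and from -0.088 to 0.16 for Bcan. Shares of recovered fragments in place of FPKM gave -0.611 percentage points for Vcan in A-iSCs over P56-NPCs and 0.0593 points for Acan in P56-NPCs over P0-NPCs. With samples left out, the Vcan share difference of P0-NPCs over ASTs ran from -0.494 to 0.95 points and the Acan share difference of P56-NPCs over P0-NPCs from -0.0290 to 0.00422 points. Members called between A-iSCs and P0-NPCs numbered 2 to 5 with samples left out, 5 being without A-iSC replicate 3. The replicate block left 7 members called in A-iSCs over ASTs, with 7944 genes called over all against 7715, and changed no other member call. The cause of these changes was not tested. Library-size scaling moved the median of all tested genes to 0.13 in A-iSCs over ASTs, -0.34 in P56-NPCs over ASTs, 0.21 in P0-NPCs over ASTs, 0.49 in A-iSCs over P56-NPCs and -0.53 in P56-NPCs over P0-NPCs. The split of higher and lower genes became 4563 and 2989 in place of 3550 and 4165 for A-iSCs over ASTs, 4569 and 7559 in place of 5924 and 6032 for P56-NPCs over ASTs, 7106 and 4860 in place of 5713 and 6146 for P0-NPCs over ASTs, 8329 and 2857 in place of 4532 and 4643 for A-iSCs over P56-NPCs, and 3438 and 9428 in place of 6115 and 6011 for P56-NPCs over P0-NPCs. Upper-quartile scaling moved the medians over ASTs to -0.17 in A-iSCs, -0.17 in P56-NPCs and -0.16 in P0-NPCs, and the split of A-iSCs over ASTs the other way, to 3027 higher and 4955 lower. Acan and Hapln1 in ASTs rested on only 9 to 24 fragments per sample.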
